A study of Homo sapiens with 12 samples.

Results

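The miR-29 family was followed through small RNA sequencing of MV4-11 and Molm-14, human acute myeloid leukemia (AML) cell lines that both carry the internal tandem duplication of FLT3. The family was taken as 4 members, hsa-miR-29a-3p, hsa-miR-29b-3p, hsa-miR-29c-3p and hsa-miR-29a-5p, chosen by name from 1204 human miRNAs in the count table. The other arms of the same hairpins in that table, hsa-miR-29b-1-5p, hsa-miR-29b-2-5p and hsa-miR-29c-5p, are described beside them, which makes 7 arms in all. Each line was measured as MPC1 KO cells, made by CRISPR/Cas9 with 1 guide RNA against MPC1 in a lentiviral construct that also carries GFP, and as Empty Vector (EV) controls, with 3 libraries in each of the 4 groups. The MPC1 protein is part of the carrier that brings pyruvate into mitochondria. Small RNA libraries do not read mRNA, so the knockout itself could not be checked here. Separate cultures are not stated for the 3 libraries within a group, so p-values measure the spread between these libraries, which may be technical. One guide RNA per line means that an effect of the MPC1 deletion cannot be told apart from an effect of that guide.

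A miRNA hairpin yields a mature RNA from its 5p arm and another from its 3p arm, and the one loaded into Argonaute pairs with target mRNAs mainly through its seed, bases 2 to 8 from the 5′ end. In miR-29 the 3p arms share a seed and are the arms usually regarded as active. They are known to repress the DNA methyltransferases DNMT3A and DNMT3B, the anti-apoptotic protein MCL1, the cell cycle kinase CDK6 and collagens, and miR-29 has been described as a tumor suppressor in AML. The 5p arms are usually the less abundant partners and have other seeds.

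The sequences of all 7 arms were found in RefSeq (GRCh38.p14), and they are shown because the family members are told apart by few bases. The seed is in capitals.
hsa-miR-29a-3p: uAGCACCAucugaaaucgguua
hsa-miR-29b-3p: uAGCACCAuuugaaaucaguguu
hsa-miR-29c-3p: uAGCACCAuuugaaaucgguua
hsa-miR-29a-5p: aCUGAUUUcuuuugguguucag
hsa-miR-29b-1-5p: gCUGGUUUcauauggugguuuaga
hsa-miR-29b-2-5p: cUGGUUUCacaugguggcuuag
hsa-miR-29c-5p: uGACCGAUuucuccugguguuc
The 3 3p arms have the same seed, and no other human mature miRNA in the RefSeq table has it. Counting positions from 1 at the 5′ end, hsa-miR-29a-3p differs from hsa-miR-29c-3p over 22 bases by the single substitution C10U. Between hsa-miR-29b-3p and hsa-miR-29c-3p the first 17 bases are the same, and A18G, G21U and U22A follow. No pair among the 4 5p arms shares a seed.

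The 4 hairpins lie in pairs on the minus strand of GRCh38. MIR29A (chr7:130876747-130876810) and MIR29B1 (chr7:130877459-130877539) are 648 bases apart inside LINC-PINT, a long noncoding RNA gene of the same strand. One annotated LINC-PINT exon holds all 81 bases of MIR29B1 and only 2 of the 64 bases of MIR29A, which is otherwise intronic. MIR29C (chr1:207801852-207801939) and MIR29B2 (chr1:207802443-207802523) are 503 bases apart and both lie within 1 exon of MIR29B2CHG, their long noncoding host gene. The sequence of hsa-miR-29b-3p occurs exactly at 2 places in the genome (chr1:207802450-207802472 and chr7:130877467-130877489), so a read of it cannot be assigned to MIR29B1 or MIR29B2. Each of the other 6 arms occurs exactly once.

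The libraries held between 3870104 and 8683456 counts, and between 984 and 1057 miRNAs had at least 1 count. Values are given as counts or as CPM, counts scaled to a common library size after TMM normalization, a factor that corrects for library composition. Changes were tested with edgeR's quasi-likelihood test on all 12 libraries, with Benjamini-Hochberg adjustment over the 659 miRNAs that passed the filter on low counts and a threshold of 0.05. Of the 4 members, 3 passed this filter and hsa-miR-29b-3p did not. The cells were checked against markers: hsa-miR-223-3p, hsa-miR-142-3p, hsa-miR-142-5p and hsa-miR-155-5p, which mark myeloid and other blood cells, lay between 2678 and 49607 CPM in every library, whereas hsa-miR-181a-5p, the other marker of that list, was at most 1.41 CPM. The sequence of hsa-miR-181a-5p occurs exactly at 2 places in the genome, and how its reads were counted is not known. Erythroid hsa-miR-451a and hsa-miR-144-3p, hepatocyte hsa-miR-122-5p and neural hsa-miR-124-3p were at most 9.58 CPM each. Epithelial hsa-miR-205-5p was at most 0.389 CPM, but hsa-miR-200c-3p of the same list reached 103.8 CPM or more in every library. Of the fibroblast and smooth muscle list, 2 of 3 were in the table, and hsa-miR-143-3p made up most of their summed level. This sum was 614 to 715 CPM in EV and 507 to 589 CPM in MPC1 KO for MV4-11, and 177 to 201 CPM in EV and 99.1 to 103.6 CPM in MPC1 KO for Molm-14, with no overlap between genotypes or lines. The part of these markers in the line and MPC1 KO differences given below was not tested.

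In the counted reads the family was almost wholly hsa-miR-29a-3p. Over the 12 libraries it made up 98.5% of the counts of the 7 arms, with a range from 97.9% to 99.0% by library. It held 25017, 14574 and 14231 counts in MV4-11 EV and 18145, 22254 and 18316 in MV4-11 MPC1 KO. In Molm-14 it held 19064, 13623 and 16787 counts in EV and 19456, 18384 and 15222 in MPC1 KO. It was the only arm of the family with abundant counts, at rank 37 to 41 among the 659 tested miRNAs by group mean CPM. How reads of hsa-miR-29b-3p, the arm with 2 exact genomic places, were counted is not known.

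**Figure D1:**
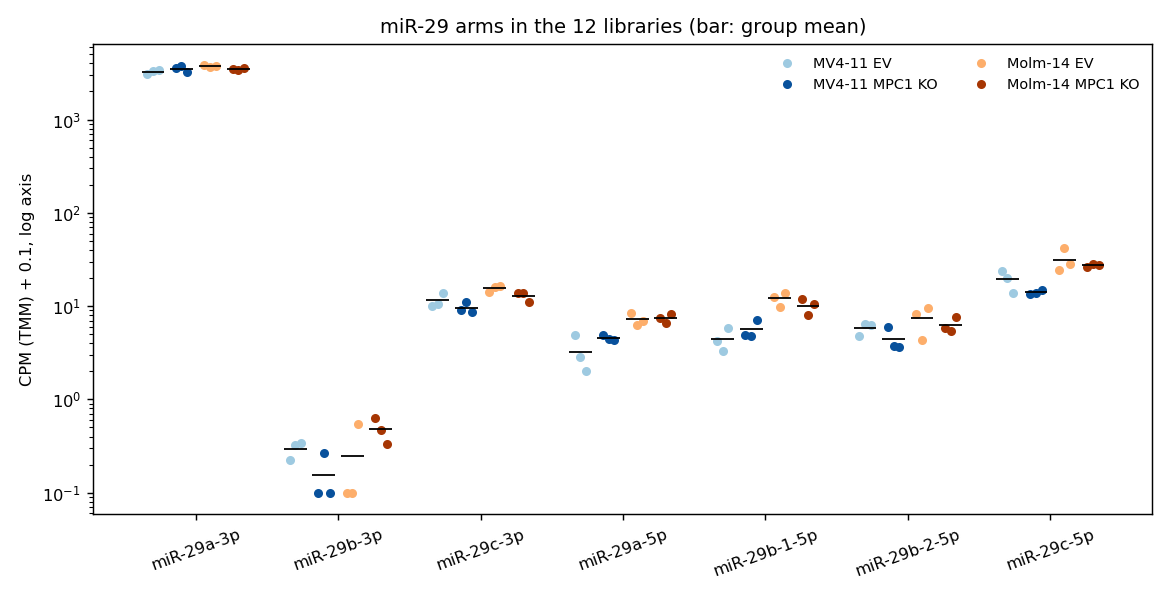
CPM plus 0.1 (TMM-scaled, log axis) of the 7 miR-29 arms; each point is a library, colored by cell line and genotype, and each bar is the mean of 3 libraries. hsa-miR-29a-3p sits between 3045 and 3805 CPM, the highest of the other arms reaches 41.4 CPM, and hsa-miR-29b-3p is at most 0.539 CPM.

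hsa-miR-29c-3p, which has the same seed, was measured at 82, 46 and 58 counts in MV4-11 EV and 46, 66 and 48 in MV4-11 MPC1 KO. In Molm-14 the counts were 70, 60 and 72 in EV and 77, 74 and 47 in MPC1 KO. The count of hsa-miR-29a-3p was between 227 and 394 times that of hsa-miR-29c-3p, with a median of 289. The arms are 22 to 24 bases long, so the counts were compared without scaling for length.

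hsa-miR-29b-3p was at the limit of counting. It had 1, 1 and 1 counts in MV4-11 EV, 0, 1 and 0 in MV4-11 MPC1 KO, 0, 0 and 2 in Molm-14 EV, and 3, 2 and 1 in Molm-14 MPC1 KO. No library exceeded the floor of 3 counts, so no fold change is given. The largest of these counts, 3 in a Molm-14 MPC1 KO library, has an exact Clopper-Pearson 95% interval from 0.112 to 1.59 CPM, here scaled to the library total alone. In the 4 libraries with a count of 0, the upper bound of the same kind of interval lay between 0.684 and 0.953 CPM on that scale. These intervals and floors cover counting error only.

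The 5p arms of the miR-29b hairpins were detected in every library. hsa-miR-29b-1-5p, from MIR29B1, had between 14 and 65 counts (median 38), and hsa-miR-29b-2-5p, from MIR29B2, had between 16 and 42 (median 29.5). The 3p arm that both hairpins encode was therefore below each of its 5p partners in counts in 12 of 12 libraries. Each 5p arm occurs at 1 exact genomic place and this 3p arm at 2, and how its reads were counted is not known.

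For hsa-miR-29c the 5p arm also led in counts. hsa-miR-29c-5p exceeded hsa-miR-29c-3p in 11 of 12 libraries and equaled it in the remaining one, an MV4-11 EV library with 58 counts of each. The ratio of 5p to 3p counts reached 2.58 (median 1.83). hsa-miR-29a had the opposite arrangement, with a 3p count between 435 and 1779 times the 5p count (median 617). Ordered by mean CPM over the 12 libraries, the levels were 3491 for hsa-miR-29a-3p, 22.9 for hsa-miR-29c-5p, 12.3 for hsa-miR-29c-3p, 7.97 for hsa-miR-29b-1-5p, 5.89 for hsa-miR-29b-2-5p, 5.51 for hsa-miR-29a-5p and 0.195 for hsa-miR-29b-3p. hsa-miR-29a-3p stood apart from the arm below it in all libraries, and so did hsa-miR-29b-3p from the arm above it. The 5 arms between them overlapped in range with their neighbors, from 1.92 to 8.38 CPM for hsa-miR-29a-5p, 3.53 to 9.45 for hsa-miR-29b-2-5p and 3.17 to 13.7 for hsa-miR-29b-1-5p.

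How reads that match several places were counted is not given in the sources used here. Across the table, 1068 of 1204 names matched a RefSeq mature sequence, and 64 of these sequences occur at several exact places in the genome. Their median level was 2.15 CPM, against 1.75 CPM for the 1004 sequences with 1 place, and 43.8% against 42.6% of them were under 1 CPM. The classes hold different miRNAs, so these medians do not show how reads that match several places were counted. Among examples chosen after their values were seen, hsa-miR-26a-5p (2 places) was at 3.48 CPM and its relative hsa-miR-26b-5p (1 place) at 13405 CPM. Likewise hsa-miR-103a-3p (2 places) was at 56.6 CPM and hsa-miR-107 (1 place) at 866 CPM. hsa-miR-16-5p (2 places) was at 22.0 CPM and hsa-miR-15a-5p (1 place) at 284 CPM. hsa-miR-24-3p (2 places) was at 2.47 CPM, beside hsa-miR-23a-3p (1 place) at 3795 CPM. In the other direction hsa-miR-92a-3p (2 places) was at 4593 CPM and hsa-miR-92b-3p (1 place) at 1910 CPM. hsa-miR-128-3p (2 places) was at 2627 CPM. The part of multiple mapping in the low count of hsa-miR-29b-3p was not tested.

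**Figure D2:**
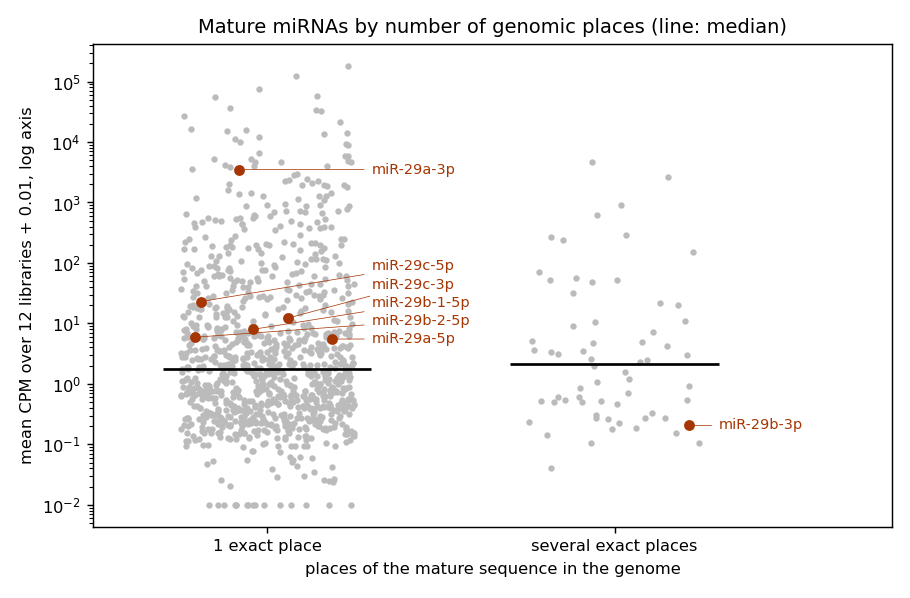
Mean CPM over the 12 libraries plus 0.01 (log axis) of 1068 mature miRNAs, split by whether the sequence occurs at 1 or at several exact places in GRCh38; gray points are miRNAs, lines are medians, and the 7 miR-29 arms are named. hsa-miR-29b-3p is the only miR-29 arm with several places, and the medians of the 2 classes are 1.75 and 2.15 CPM.

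Whether loss of MPC1 changed the family was asked in each line. None of the 6 tested arms passed the threshold in either line, against 3.03% of all tested miRNAs that did in MV4-11 and 6.83% in Molm-14. At an unadjusted p under 0.05 there was 1 arm in MV4-11, hsa-miR-29c-5p, and 0 in Molm-14. DESeq2 and limma-voom, also run on these counts, passed 0 arms as well. The median log2 fold change of the 6 arms was -0.07 in MV4-11 and -0.22 in Molm-14, beside 0.00 and -0.01 over all 659 miRNAs.

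hsa-miR-29a-3p was at 3045, 3302 and 3407 CPM in MV4-11 EV and at 3525, 3722 and 3234 CPM in MV4-11 MPC1 KO, so the groups overlapped. The estimated log2 fold change, 0.10, had a standard error of 0.09 (95% interval -0.08 to 0.29, edgeR adjusted p = 0.678). In Molm-14 it was at 3805, 3636 and 3777 CPM in EV and at 3498, 3372 and 3569 CPM in MPC1 KO. All 3 MPC1 KO libraries lay below the EV libraries, yet the estimate of -0.10 (standard error 0.09, 95% interval -0.29 to 0.08) did not pass the edgeR test (adjusted p = 0.593). The intervals limit a change of this arm to 0.945-fold to 1.22-fold in MV4-11 and to 0.818-fold to 1.06-fold in Molm-14. The depth of this arm makes these the narrowest intervals in the family.

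hsa-miR-29c-3p was at 9.98, 10.4 and 13.9 CPM in MV4-11 EV and at 8.94, 11.0 and 8.47 CPM in MPC1 KO. Its log2 fold change there was -0.25 (standard error 0.20, 95% interval -0.67 to 0.17), with an adjusted p of 0.657 from edgeR. In Molm-14 EV it was at 13.97, 16.01 and 16.2 CPM, and in MPC1 KO at 13.8, 13.6 and 11.0 CPM. The Molm-14 groups did not overlap, but the estimate of -0.25 (standard error 0.20, 95% interval -0.66 to 0.15) had an edgeR adjusted p of 0.535.

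hsa-miR-29a-5p, the less abundant partner of hsa-miR-29a-3p, was at 4.75, 2.72 and 1.92 CPM in MV4-11 EV and at 4.86, 4.35 and 4.24 CPM in MPC1 KO. The EV library with 4.75 CPM was also the deepest of the series, and without it the estimate rose from 0.41 to 0.93, still with an edgeR adjusted p of 0.216. The full estimate of 0.41 had a 95% interval from -0.21 to 1.03 (adjusted p = 0.624 from edgeR). In Molm-14 the arm was at 8.38, 6.14 and 6.75 CPM in EV and at 7.37, 6.42 and 8.21 CPM in MPC1 KO, with a log2 fold change of 0.03 (95% interval -0.52 to 0.58).

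Among the remaining arms the estimates in MV4-11 were 0.36 for hsa-miR-29b-1-5p, -0.38 for hsa-miR-29b-2-5p and -0.48 for hsa-miR-29c-5p. The interval of hsa-miR-29c-5p, from -0.90 to -0.06, left out 0 before adjustment, and its adjusted p was 0.280 from edgeR. Its MV4-11 EV libraries were spread from 13.9 to 23.7 CPM, and its MPC1 KO libraries lay between 13.4 and 14.8 CPM. In Molm-14 the 3 estimates were -0.26, -0.27 and -0.19. At these counts a change of the less abundant arms was not detectable unless large, since their intervals spanned up to 1.03 on the log2 scale, the upper bound of hsa-miR-29a-5p in MV4-11. The difference between the lines in the MPC1 KO effect passed the threshold for 0 of 6 arms, and for 6.68% of all tested miRNAs. By unadjusted p under 0.05 it was also 0 of 6, and 0 by DESeq2 and limma-voom.

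**Figure D3:**
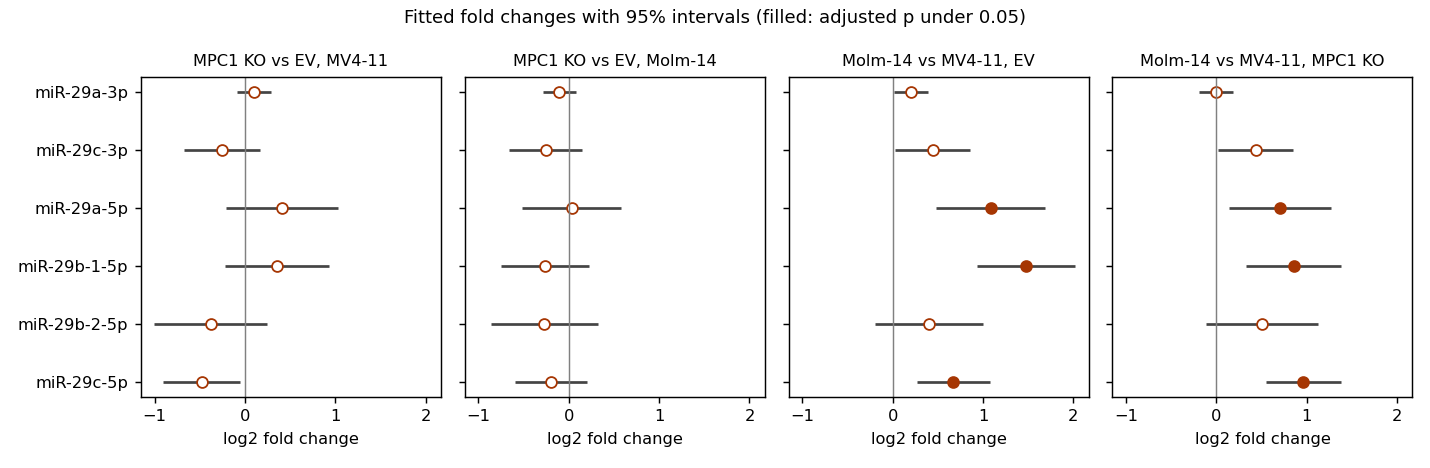
Fitted log2 fold changes of the 6 tested miR-29 arms with 95% intervals, for MPC1 KO vs EV in each line and for Molm-14 vs MV4-11 in each genotype; filled points had an adjusted p under 0.05 in edgeR. No point is filled in the MPC1 KO panels, and the same 3 5p arms are filled in both line panels.

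The cell lines differed in some of the 5p arms, and hsa-miR-29b-2-5p did not pass in either comparison. hsa-miR-29a-5p, hsa-miR-29b-1-5p and hsa-miR-29c-5p were higher in Molm-14 than in MV4-11 both among the EV controls and among the MPC1 KO cells. Thus 3 of 6 arms were higher in Molm-14 in each comparison. For each of these arms all 6 Molm-14 libraries lay above all 6 MV4-11 libraries. The share of all tested miRNAs that separate in this way was not computed, so nothing particular to the family is read from it. The lines differ widely, so that 61.9% of the 659 miRNAs passed in the EV comparison and 33.5% passed as higher in Molm-14. In the MPC1 KO comparison these shares were 62.4% and 32.9%. A count of 3 of 6 against such a background says nothing particular of the family. Among the 141 miRNAs with a mean level between 5.51 and 22.9 CPM, the range of the 5 less abundant tested arms, 32.6% were higher in Molm-14 in each comparison. The EV and MPC1 KO comparisons share no library.

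hsa-miR-29b-1-5p had the largest estimated line difference of the arms among EV controls, and hsa-miR-29c-5p among MPC1 KO cells. hsa-miR-29b-1-5p was at 4.14, 3.17 and 5.75 CPM in MV4-11 EV and at 12.6, 9.61 and 13.7 CPM in Molm-14 EV. The difference was 2.78-fold, or 1.48 ± 0.26 (standard error) on the log2 scale, with an edgeR adjusted p of 2.97e-05. Among MPC1 KO cells it was at 4.86, 4.68 and 7.06 CPM in MV4-11 and 11.7, 7.89 and 10.6 CPM in Molm-14. Here it was 1.81-fold, or 0.85 ± 0.25 (standard error) on the log2 scale, with an edgeR adjusted p of 0.00508.

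hsa-miR-29a-5p, processed from the hairpin next to it, had values in MV4-11 and Molm-14 that are given above. Among EV controls it was 2.12-fold higher in Molm-14, or 1.08 ± 0.29 (standard error) in log2, with an edgeR adjusted p of 0.00238. Among MPC1 KO cells it was 1.63-fold higher, or 0.70 ± 0.27 (standard error) in log2, with an edgeR adjusted p of 0.0301. The second of these calls was lost with DESeq2 (adjusted p = 0.0976) and with total counts as the scale (adjusted p = 0.0600). It was also lost when any 1 of 4 MPC1 KO libraries (replicates 2 and 3 of MV4-11, 1 and 3 of Molm-14) was left out (highest adjusted p = 0.0873).

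hsa-miR-29c-5p was at 23.7, 19.9 and 13.9 CPM in MV4-11 EV and at 24.6, 41.4 and 28.1 CPM in Molm-14 EV. The difference was 1.59-fold, or 0.67 ± 0.20 (standard error) in log2, with an edgeR adjusted p of 0.00461. Among MPC1 KO cells the arm was at 13.4, 13.7 and 14.8 CPM in MV4-11 and at 26.4, 28.1 and 27.2 CPM in Molm-14. These groups were tight, and the 1.95-fold difference, 0.96 in log2 (standard error 0.20), had an edgeR adjusted p of 2.09e-04.

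The 3p arms did not pass in either comparison. hsa-miR-29a-3p was 1.15-fold higher in Molm-14 EV, where all 3 libraries lay above those of MV4-11 EV, with a log2 fold change of 0.20 (95% interval 0.02 to 0.39) and an edgeR adjusted p of 0.0545. Its values among MPC1 KO cells overlapped, with an estimate of -0.01 (95% interval -0.19 to 0.18). hsa-miR-29c-3p had estimates of 0.44 in both comparisons, with edgeR adjusted p-values of 0.0561 and 0.0632. These values lie next to the threshold. With limma-voom hsa-miR-29a-3p passed among EV controls (adjusted p = 0.0384), and so did hsa-miR-29c-3p (adjusted p = 0.0401). With upper-quartile scaling, which moved the median of all miRNAs in that comparison by -0.18 on the log2 scale, the estimates were 0.03 and 0.26. hsa-miR-29b-2-5p had estimates of 0.40 and 0.51, and its adjusted p-values from edgeR were 0.240 and 0.146. Without Molm-14 EV replicate 2 its EV estimate was 0.67 and passed (adjusted p = 0.0428 from edgeR).

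Whether the balance of the family within a library differed was tested on shares and ratios of counts, which need no scaling between libraries. Exact two-sided permutation tests were made by permuting line labels within genotype or genotype labels within line (400 arrangements, smallest possible p 0.005), for 6 measures and 2 comparisons each, 12 tests in all. No test passed after Benjamini-Hochberg adjustment over the 12, where the lowest adjusted p was 0.06. The design limits this, since a single test at the smallest possible p adjusts to 0.06 and cannot pass alone.

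hsa-miR-29c-3p made up 0.315% to 0.406% of the counts of the 3p arms in MV4-11 EV, 0.253% to 0.296% in MV4-11 MPC1 KO, 0.366% to 0.438% in Molm-14 EV and 0.308% to 0.401% in Molm-14 MPC1 KO. The share was 0.0795 percentage points higher in Molm-14 (exact permutation p = 0.015, adjusted 0.06). The MPC1 KO minus EV difference was -0.0610 percentage points (exact permutation p = 0.035, adjusted 0.084). In MV4-11 alone the MPC1 KO libraries lay below the EV libraries without overlap, and in Molm-14 alone the groups overlapped. With 3 libraries per side, 0.1 is the smallest p an exact permutation test allows. The share of hsa-miR-29a-3p mirrored these values, with a mean of 99.7% in MV4-11 and 99.6% in Molm-14, and with differences of -0.0832 percentage points between lines (exact permutation p = 0.015, adjusted 0.06) and 0.0597 between genotypes (exact permutation p = 0.045, adjusted 0.09). With all 7 arms as the whole, the differences in the hsa-miR-29a-3p share were -0.655 percentage points between lines (exact permutation p = 0.005) and 0.192 between genotypes (exact permutation p = 0.025). hsa-miR-29b-3p made up at most 0.0154% of the counts of the 3p arms.

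**Figure D4:**
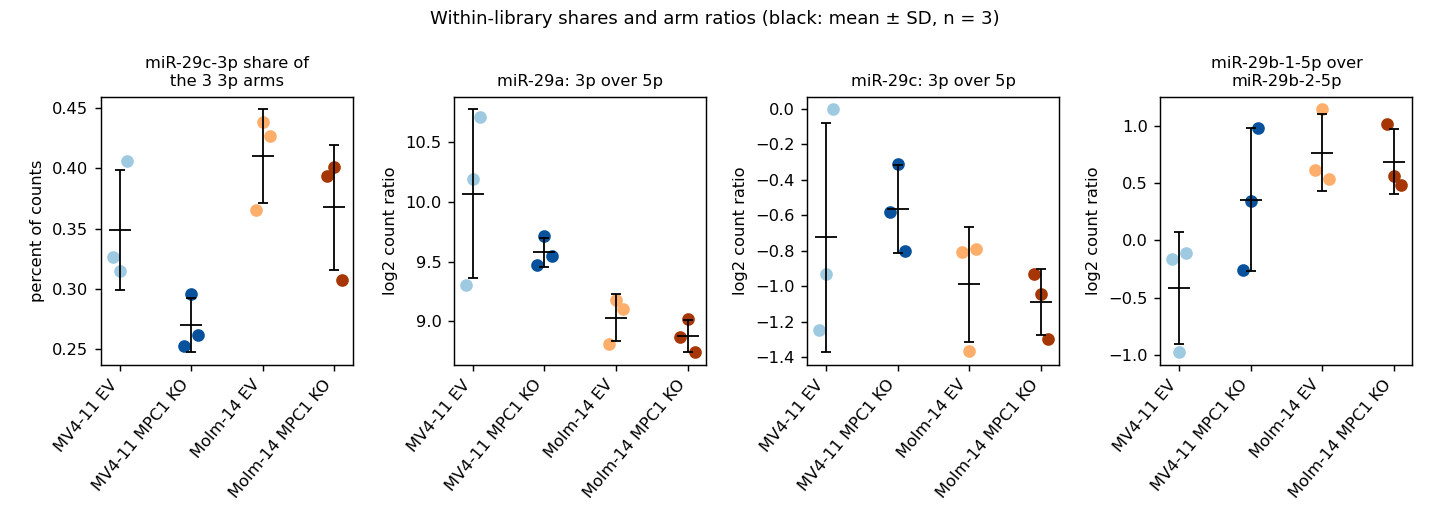
Share of hsa-miR-29c-3p in the summed counts of the 3 3p arms (percent) and log2 count ratios between arms, by group; points are libraries and black marks are the mean ± SD of 3. The ratio of hsa-miR-29a-3p to hsa-miR-29a-5p is lower in all 6 Molm-14 libraries (8.74 to 9.18) than in all 6 MV4-11 libraries (9.31 to 10.7).

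The log2 ratio of hsa-miR-29a-3p to hsa-miR-29a-5p, both cut from 1 hairpin, averaged 10.07 ± 0.71 (SD, n = 3) for MV4-11 EV and 9.58 ± 0.12 for MV4-11 MPC1 KO. For Molm-14 the means were 9.03 ± 0.20 with EV and 8.88 ± 0.14 with MPC1 KO. The mean difference between the lines was -0.87, and all Molm-14 libraries lay below all MV4-11 libraries (exact permutation p = 0.005, the smallest possible, adjusted 0.06). The 5p counts behind this ratio were low, from 8 to 39 per MV4-11 library and from 23 to 42 per Molm-14 library. Between genotypes the difference was -0.32 (exact permutation p = 0.195). With 1 library left out it was -0.51 to -0.16, and p was under 0.05 in 1 of 12 cases. That case was without the deepest library, an MV4-11 EV library (-0.51, exact permutation p = 0.015, not adjusted).

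The 5p arms of MIR29B1 on chromosome 7 and MIR29B2 on chromosome 1 differ in sequence and were counted separately, unlike the 3p arm that both encode. The log2 ratio of hsa-miR-29b-1-5p to hsa-miR-29b-2-5p was above 0 in 6 of 6 Molm-14 libraries and in 2 of 6 MV4-11 libraries. Its mean was 0.72 in Molm-14 and -0.03 in MV4-11, a difference of 0.76 (exact permutation p = 0.02, adjusted 0.06). Its MV4-11 means were -0.42 ± 0.49 (SD, n = 3) with EV and 0.36 ± 0.62 with MPC1 KO, and the line difference was 1.18 among EV and 0.33 among MPC1 KO libraries. The ratio of hsa-miR-29c-3p to hsa-miR-29c-5p, added after the values were seen, had a line difference of -0.39 (exact permutation p = 0.1, adjusted 0.171). With 1 library left out it was -0.52 to -0.21, and p was under 0.05 in 1 of 12 cases. That case was without the deepest library (-0.52, exact permutation p = 0.035, not adjusted).

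The miRNAs outside the family whose centered level differed least from that of hsa-miR-29a-3p were hsa-miR-191-3p, hsa-miR-106b-3p and hsa-miR-186-5p. They need not change in the same direction. For MPC1 KO in MV4-11 their log2 fold changes were 0.03, 0.14 and -0.07, beside 0.10 for hsa-miR-29a-3p. Likeness was the root mean square difference of log2 CPM over the 12 libraries after centering each miRNA on its own mean, and it was 0.0857, 0.0893 and 0.0931, beside a median of 0.515 over all other tested miRNAs. For hsa-miR-29c-3p the closest miRNAs were hsa-miR-378a-5p, hsa-miR-6758-3p and hsa-miR-624-5p, at 0.138, 0.144 and 0.165, beside a median of 0.580. The measure could not be applied to hsa-miR-29b-3p, which was not tested.

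Other miRNAs known to repress DNA or histone methyltransferases, a list of 7, were set beside the family. In MV4-11 MPC1 KO 0 of 7 passed the threshold, beside 3.03% of all tested miRNAs, and in Molm-14 MPC1 KO 2 rose and 1 fell, beside 6.83% called in either direction. The median log2 fold change of the list was 0.00 in both, beside 0.00 and -0.01 over all tested miRNAs. In Molm-14, hsa-miR-101-3p, known to repress EZH2, rose by 0.56 (standard error 0.12, adjusted p = 0.00444 from edgeR) and hsa-miR-152-3p, known to repress DNMT1, by 0.53 (standard error 0.11, adjusted p = 0.00260 from edgeR), on the log2 scale. hsa-miR-143-3p, known to repress DNMT3A and also the main fibroblast and smooth muscle marker given above, fell by 0.88 on the log2 scale (standard error 0.10, adjusted p = 3.74e-06 from edgeR). The sequence of hsa-miR-101-3p occurs exactly at 2 places in the genome, and how its reads were counted is not known.

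Between the lines, 2 of this list were higher and 2 lower in Molm-14 among EV controls, and 3 higher and 3 lower among MPC1 KO cells. Over all tested miRNAs 61.9% and 62.4% were called in these comparisons, and nothing particular to the list is read from its counts. hsa-miR-148a-3p, known to repress DNMT1, was higher in Molm-14 by log2 fold changes of 0.91 and 0.80, and hsa-miR-101-3p by 0.86 and 1.70. hsa-miR-152-3p was lower, with values of -3.35 and -2.94, and so was hsa-miR-143-3p, with -1.83 and -2.38. Among MPC1 KO cells, hsa-miR-26a-5p (1.36) and hsa-miR-26b-5p (-0.21), which share a seed and are known to repress EZH2, passed in opposite directions. Their mean levels were 3.48 CPM (2 exact genomic places) and 13405 CPM (1 place), and the part of this was not tested. The second call was lost with upper-quartile scaling (adjusted p = 0.0577 from edgeR) and without the filter (adjusted p = 0.0535). It was also lost when any 1 of 6 libraries was left out.

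The second list held 10 miRNAs known to repress MCL1 or CDK6, both targets of miR-29. The table had 9 of them by name, and 8 were tested. With MPC1 KO 0 of 8 passed in MV4-11, beside 3.03% of all tested miRNAs. In Molm-14 1 of 8 passed, beside 6.83%. This was hsa-miR-101-3p, which is on both lists. Higher in Molm-14 were 5 of 8 among EV controls, with 1 lower, and 5 of 8 among MPC1 KO cells, with 0 lower. Over all tested miRNAs 33.5% and 32.9% were higher in Molm-14, and 61.9% and 62.4% were called in either direction. The median log2 fold changes of the list were 0.95 and 1.26, beside 0.06 and 0.05 over all tested miRNAs. They stayed the same with the 2 miRNAs at the counting floor in MV4-11 set to their bounds. Mean levels of the higher miRNAs were 1.61 CPM for hsa-miR-193b-3p, 2.04 for hsa-miR-449a and 4.17 for hsa-miR-125b-5p. Those of hsa-miR-103a-3p, hsa-let-7a-5p and hsa-miR-101-3p were 56.6, 150 and 238 CPM. Several exact genomic places hold hsa-let-7a-5p (3 places), hsa-miR-101-3p, hsa-miR-103a-3p and hsa-miR-125b-5p (2 places each). The part of low counts and multiple mapping was not tested, and nothing particular to the list is read from its values.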

How the data were processed

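Small RNA of MV4-11 and Molm-14 cells was extracted with a Qiagen miRNeasy kit and prepared with NEBNext small RNA kits. The authors deposited raw counts of reads per mature miRNA, without normalization. The submitters' processing notes name STAR 2.5.2, featureCounts 1.5.1 and GRCh38 and give them no role. How reads with several matches were counted is not given in the sources used here. Such counting, and unequal capture of small RNAs, can shift levels between arms. Libraries were grouped by their labels.

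From the counts, edgeR 4.0.16 (R 4.3.3) was run with filterByExpr (minimum count 10), TMM factors between 0.940 and 1.08, and a quasi-likelihood model with robust dispersions and 1 mean per group, 4 in all. Intervals are 95% intervals from the fit, and standard errors were derived from the F statistic and the estimate. Log2 CPM used a prior count of 2, and count ratios had 0.5 added to each count. Counts of replicates differed beyond sampling noise (chi-square per degree of freedom 13.7 to 189). The fit and the permutation test were tested on simulated data. Alternatives were DESeq2 1.42.0, limma-voom (limma 3.58.1), other scalings and filters, a replicate block, each line alone and leaving out each library. Named miRNAs were the 7 arms, for each 3p arm the 3 miRNAs most like it, and those of the methyltransferase list past the threshold, with others said to be chosen after their values were seen. The members and lists were chosen with earlier results of these data known. RefSeq sequences were matched exactly to GRCh38, and annotation came from GENCODE.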

Additional observations from a re-analysis of the deposited data

Results flagged for a closer look

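The MPC1 KO effect differed between the lines for 2 miRNAs of the methyltransferase list, in edgeR's interaction contrast. For hsa-miR-101-3p the effect in Molm-14 less that in MV4-11 was 0.84 on the log2 scale (standard error 0.18, adjusted p = 0.00499), from -0.28 in MV4-11 and 0.56 in Molm-14. For hsa-miR-143-3p it was -0.55 (standard error 0.14, adjusted p = 0.0243), from -0.33 and -0.88, and this call was lost with upper-quartile scaling (adjusted p = 0.143) and when 1 of 6 libraries was left out. No miR-29 arm met this criterion. Groups of 3 libraries were too small to be tested for single outlying libraries.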

How the results depend on the processing

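No miR-29 arm passed the edgeR, DESeq2 or limma-voom threshold for MPC1 KO in either line under any alternative (lowest adjusted p 0.0668 in MV4-11 and 0.367 in Molm-14), and hsa-miR-29b-1-5p and hsa-miR-29c-5p passed between the lines under every alternative. hsa-miR-29a-5p passed among EV controls under 19 of 19 and among MPC1 KO cells under 13 of 19. Its log2 fold change among MPC1 KO cells was 0.59 with total counts, 0.70 with DESeq2 (adjusted p = 0.0976) and 0.63 to 0.77 with 1 library left out. The 3p arms crossed the threshold between EV controls with limma-voom, at 0.21 for hsa-miR-29a-3p and 0.46 for hsa-miR-29c-3p. With 1 library left out these were 0.11 to 0.25 and 0.29 to 0.58, past the threshold for hsa-miR-29a-3p without replicate 2 of Molm-14 EV or replicate 1 of Molm-14 MPC1 KO (lowest adjusted p 0.0356, edgeR) and for hsa-miR-29c-3p without MV4-11 EV replicate 3 (adjusted p = 0.0215, edgeR). Among MPC1 KO cells hsa-miR-29c-3p was 0.36 to 0.56, past it without replicate 3 of MV4-11 EV, replicate 2 of MV4-11 MPC1 KO or replicate 3 of Molm-14 MPC1 KO. Estimates near 0 changed sign: hsa-miR-29a-3p for MPC1 KO in MV4-11 with upper-quartile factors (-0.0045), which moved the median of all miRNAs by -0.11, and hsa-miR-29c-3p in the difference of MPC1 KO effects with upper-quartile factors (0.18, median moved by 0.18) and DESeq2 (0.021). Signs also changed with 1 library left out for hsa-miR-29a-3p between MPC1 KO cells (-0.062 to 0.044), hsa-miR-29a-5p (-0.039 to 0.19) and hsa-miR-29c-5p (-0.33 to 0.081) for MPC1 KO in Molm-14, and hsa-miR-29c-3p (-0.14 to 0.14) and hsa-miR-29b-2-5p (-0.18 to 0.38) in the difference of effects. Except where a library was left out, the cause was not tested.

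By exact permutation, the MPC1 KO minus EV share ranged from 0.0437 to 0.0719 percentage points for hsa-miR-29a-3p and from -0.0721 to -0.0460 for hsa-miR-29c-3p, and lost p under 0.05 in 9 and 6 of 12 cases. With 1 library left out, the line difference of hsa-miR-29b-1-5p over hsa-miR-29b-2-5p was 0.60 to 0.91 (p at or above 0.05 without replicate 2 of either EV group or replicate 1 of MV4-11 MPC1 KO) and that of hsa-miR-29c-3p over hsa-miR-29c-5p -0.52 to -0.21. The MPC1 KO difference was -0.51 to -0.16 for hsa-miR-29a-3p over hsa-miR-29a-5p and -0.10 to 0.21 for hsa-miR-29c-3p over hsa-miR-29c-5p. Taking all 7 arms as the whole moved no p across 0.05, but it moved the hsa-miR-29a-3p share difference from -0.0832 to -0.655 percentage points between lines and from 0.0597 to 0.192 between genotypes. Adding 1 to each count moved no p across 0.05. The number of miRNAs past the threshold was 31 with DESeq2 against 20 for MPC1 KO in MV4-11, where it was 12 to 38 with 1 library left out, and 22 to 53 against 44 for the difference of effects. With a mean of at least 100 counts, fewer miRNAs were tested, and 212 of the EV and 214 of the MPC1 KO line calls were left.

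Replicate numbers did not pair the libraries. Same-numbered libraries of a line deviated together with a correlation above 0.1 in 1 of 6 pairs, and 5 of 12 libraries correlated best with their own number. With the replicate block, 22, 49 and 406 miRNAs passed for MPC1 KO in MV4-11, in Molm-14 and between EV controls. No arm gained or lost its call with the block, and hsa-miR-29c-3p in the difference of effects was 0.0033. Depth limits the less abundant arms, with 8 to 195 counts per library, and hsa-miR-29b-3p could not be tested.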
